A study of Mus musculus with 2 samples.

Results

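The γδ T cells of mouse spleen were defined by measured transcripts, and 248 of the 15278 CD3+ cells in 3 pools of mice met the definition. A cell was a member if it held at least 1 molecule of Cd3d, Cd3e or Cd3g, at least 1 of the δ constant gene Trdc and at least 1 of the γ constant genes Tcrg-C1, Tcrg-C2 or Tcrg-C4, with 0 molecules of Cd4, Cd8b1 and Cd79a. The pools were spleens of female C57BL/6 mice (strain C57/BL6N in the sample record), 3 mice to a pool, with no allele or transgene named. One pool had received saline (0 h), another had received remimazolam (6 mg/kg) 4 h earlier, and the third the same dose 8 h earlier. Remimazolam is a short-acting benzodiazepine sedative that acts on the GABA-A receptor. One sample tag marked each pool, the tagged cells were run together in a single BD Rhapsody whole-transcriptome capture, and individual mice cannot be told apart within a tag. The labels give the sorted cells as CD45+CD3+CD5+ in one place and as CD45+ in another. Members numbered 72 of 5013 CD3+ cells in the saline pool, 106 of 5133 in the 4 h pool and 70 of 5132 in the 8 h pool, and 0 barcodes were shared between pools.

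γδ T cells carry a receptor built from a γ and a δ chain in place of the α and β chains of most T cells, and the receptor signals through the same CD3 complex. They are a small fraction of T cells in the mouse spleen and lymph nodes and are more common in skin, gut and reproductive tract. Many leave the thymus already committed, some to a type 1 programme with interferon-γ, NK-type receptors and the transcription factors T-bet and Eomes, others to a type 17 programme with interleukin-17. The mouse γ locus consists of clusters that each carry their own variable, joining and constant segments, so a constant gene tells which cluster was used only if near-identical copies can be told apart.

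How far that holds is shown by the start of the constant exons. In GENCODE M21 on GRCm38, Tcrg-C1 lies at chr13:19214103-19217024 (plus strand), Tcrg-C2 at chr13:19304649-19307551 (minus strand) and Tcrg-C4 at chr13:19344558-19352756 (plus strand). Coding bases 1 to 90 of each are printed 5′ to 3′, and capitals mark a base that differs from Tcrg-C1.
Tcrg-C1: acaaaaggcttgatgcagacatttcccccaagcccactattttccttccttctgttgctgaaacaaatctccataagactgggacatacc
Tcrg-C2: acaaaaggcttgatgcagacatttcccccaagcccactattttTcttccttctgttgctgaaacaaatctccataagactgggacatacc
Tcrg-C4: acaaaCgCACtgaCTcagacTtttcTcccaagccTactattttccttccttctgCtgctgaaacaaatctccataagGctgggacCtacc
Tcrg-C2 differs from Tcrg-C1 at 1 of these bases and Tcrg-C4 at 12. Over the coding stretch Tcrg-C1 and Tcrg-C2 are identical at 487 of 500 aligned bases (97.4%), against 403 of 512 (78.7%) for Tcrg-C1 and Tcrg-C4. Tcrg-C3 is 96.8% identical to Tcrg-C1 and had 6 molecules in members. The split of molecules between Tcrg-C1, Tcrg-C2 and Tcrg-C3 is therefore uncertain, and that between Tcrg-C4 and the others is less so.

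The genes that chose the members are given as a description. Trdc (chr14:54142851-54148868, plus strand) had 3836, 3516 and 3099 CPM (molecules of the gene per 1000000 molecules summed over the cells) in members of the saline, 4 h and 8 h pools, against 32.6, 31.5 and 36.0 CPM in other CD3+ cells. Tcrg-C1 had 806, 832 and 607 CPM in members, Tcrg-C2 had 1183, 1148 and 1052 CPM, and Tcrg-C4 had 1156, 1108 and 911 CPM. The median member held 8 Trdc molecules and 7 γ constant molecules, and the highest held 32 of Trdc. Just inside the rule, 14 members (5.65%) had exactly 1 Trdc molecule, 8 had exactly 1 γ constant molecule and 3 had 1 of each. Just outside it, among the 2881 CD3+ cells without Cd4, Cd8b1 and Cd79a, 66 had Trdc and no γ constant molecule, and 234 had a γ constant molecule and no Trdc. Of those 66 cells, 69.7% had a single Trdc molecule and 92.4% held the α constant gene Trac, with a median of 4 Trac molecules. Both transcripts were also found together in 18 of 5857 cells with Cd4 and in 47 of 5659 cells with Cd8b1. None of 392 B cells held both, which allows a share of up to 0.765%, although 4 held Trdc.

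The α chain transcript, which the rule did not use, was low in members. Trac had 272, 249 and 371 CPM in members of the saline, 4 h and 8 h pools, against 1936, 1886 and 1974 CPM in other CD3+ cells, so the classes did not overlap. The difference was -2.82 ± 0.10 on the log2 scale (± SE, 3 pools, adjusted p = 1.96e-69, edgeR's quasi-likelihood test on molecules summed per pool and class, with the pool as a block and Benjamini-Hochberg adjustment over all genes tested). Trac was present in 93 of 248 members (37.5%), 51 of which held a single molecule. After each cell was thinned to 1000 molecules it was in 20.6% of members and 79.4% of other CD3+ cells. In B cells, which do not express it, Trac was in 47 of 392 cells at a median of 2180 molecules per cell, against a median of 2400.5 in members. The β constant genes were less separated. Trbc2 was lower in members by a log2 change of -0.67 ± 0.07 (adjusted p = 1.44e-17), and Trbc1 differed by -0.18 ± 0.09 (adjusted p = 0.214). Trbc1 and Trbc2 are near-identical copies, so their split is uncertain too.

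**Figure D1:**
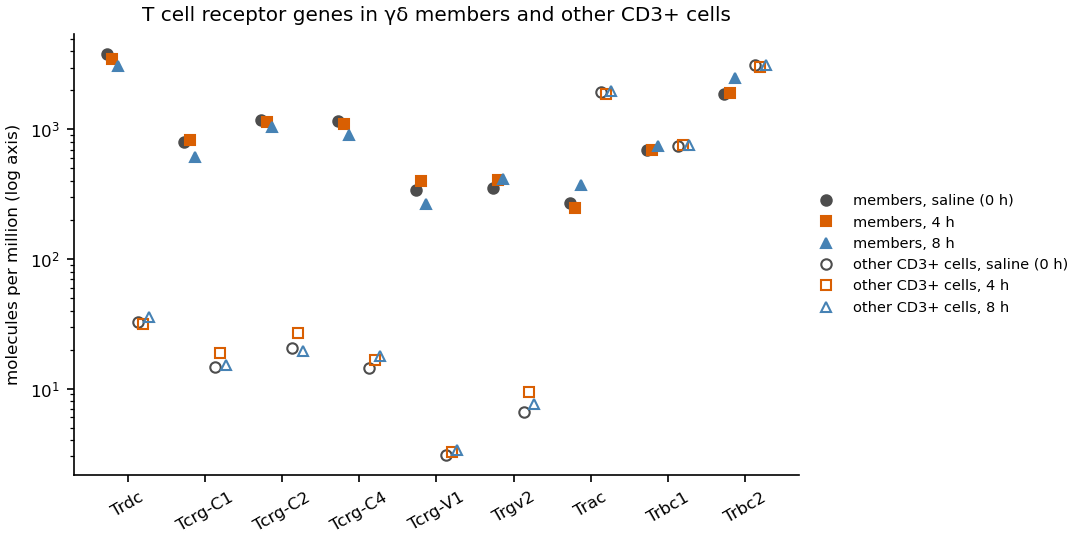
CPM (log axis) of receptor genes summed over γδ members (filled) and over other CD3+ cells (open), 1 point for each pool of 3 mice. Trdc stood at 3099 CPM or more in members, Trac stood between 249 and 371 in members against 1886 to 1974 in other cells, and the β constant genes were present in both.

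Most members held transcripts of more than 1 γ constant gene. All 3 were found in 117 of 248 members (47.2%; 95% exact Clopper-Pearson interval 40.8 to 53.6%), which were 39 of 72, 49 of 106 and 29 of 70 in the saline, 4 h and 8 h pools. Tcrg-C4 was in 195 members (78.6%), it was the only γ constant gene in 13, and 53 members held Tcrg-C1 or Tcrg-C2 without it. Among variable segments, Tcrg-V1 (chr13:19339989-19340454, plus strand) was in 120 members (48.4%) and in 0.607% of other CD3+ cells, and Trgv2 (chr13:19336573-19337167, minus strand) was in 128 members (51.6%) and in 1.21% of other CD3+ cells. Both were found in 73 members, Tcrg-V1 alone in 47, Trgv2 alone in 55 and neither in 73. Tcrg-V1 and Tcrg-C4 lie in the same cluster of the locus. Tcrg-C4 had 1585, 1374 and 1278 CPM in Tcrg-V1+ members of the saline, 4 h and 8 h pools, against 778, 829 and 590 CPM in members without Tcrg-V1. Trgv2+ members likewise had 1541, 1403 and 1409 CPM of Tcrg-C2, against 849, 822 and 584 CPM in members without Trgv2. In each pool the constant gene of the same cluster was higher in members with the variable segment. The other cluster's gene was higher too: Tcrg-C2 was 1284 CPM in Tcrg-V1+ members over all pools, against 988 CPM in members without Tcrg-V1, and Tcrg-C4 was 1221 CPM in Trgv2+ members, against 888 CPM in members without Trgv2. Tcrg-C1 had no one direction, at 759, 720 and 832 CPM in Tcrg-V1+ members of the saline, 4 h and 8 h pools, against 847, 950 and 411 CPM in members without it. These levels are descriptive, since the constant genes are part of the rule. Other γ variable segments gave few molecules. Tcrg-V4 was in 10 members, Tcrg-V3 in 5, and Tcrg-V6, the segment of many type 17 γδ cells, gave 1 molecule. These are fewer than the 73 members with neither Tcrg-V1 nor Trgv2. Variable segments thus went undetected in many members, and low counts do not show that a lineage was rare. Of the δ variable genes, Trdv2-2 was in 7 members and Trdv5 in 6, and Trdv5 overlaps Trdc on the opposite strand, so its counts are uncertain.

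Depth was similar across pools. Members held medians of 2412, 2408.5 and 2354 molecules per cell in the saline, 4 h and 8 h pools, with 191098, 269070 and 177801 molecules in all, and other CD3+ cells held medians of 2548, 2529 and 2533. Median mitochondrial shares were 8.52 to 8.69% in members and 9.78 to 9.97% in other CD3+ cells. A gene at 0 in a pool's members can have been at up to 15.7, 11.1 or 16.9 CPM in the saline, 4 h and 8 h pools (3 molecules, counting error only). Summed B cell markers (11 genes) were 379 to 445 CPM in members and 392 to 403 CPM in other CD3+ cells, most of it Ighm. Of these genes 4 were at 0 in members, Ms4a1 included. Another of the 4 was Cd79a, which was 0 by definition in both classes. Myeloid markers (7 genes, Lyz2 at 0 in members) were 175 to 330 against 289 to 305 CPM, and all 5 neutrophil markers were at 0 in members. Erythroid markers were at 84.4 CPM in the 8 h members and at 0 in members of the other pools, against 1.17 to 2.76 CPM in other cells. Plasma cell markers summed to 52.3 to 89.99 CPM in members and 41.7 to 44.9 CPM in other cells. NK cell markers summed to 513 to 580 CPM in members, against 102 to 113 CPM in other cells. Ncr1, a gene of NK cells, had 2 molecules in all members, or 3.13 CPM against 0.270 CPM in other CD3+ cells. That count is under the 3 molecules that a count of 0 allows. Klrb1c, of the same list, had 83.1 CPM in members against 9.58 CPM in other cells. The part of these genes in the results was not tested, and each cell had CD3 and receptor transcripts by the rule.

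Against the 14829 other CD3+ cells without Cd79a, members carried more Ccl5, Il2rb, Eomes, Cd7 and Cd160, genes of type 1 effector and NK-like cells, and less Igfbp4 and Ccr7, genes of naive T cells. Of 5859 genes tested, 358 were higher in members (6.11%) and 320 were lower (5.46%), with a median log2 difference of 0.01 over all genes. Of 14 tested genes of the type 1 list (of 21), 12 were called higher and 0 lower, with a median log2 difference of 1.95. Of the 14, 6 were under the filter of 25 CPM in other CD3+ cells and were tested only because members were higher (Tbx21, Xcl1, Gzma, Gzmb, Il18rap and Crtam), so that count and median are no measure of the list. Of the 8 genes at or above the filter in other CD3+ cells themselves, 7 were higher and 0 lower. Ccl5, a chemokine of effector and memory cells, had 2993, 2977 and 2463 CPM in members of the saline, 4 h and 8 h pools, against 240, 299 and 305 CPM in other CD3+ cells. Its log2 difference was 3.23 ± 0.08 (adjusted p = 1.10e-97, edgeR), and it was the highest-ranked gene outside the rule. Il2rb, the β chain of the IL-2 and IL-15 receptors, had 994, 1048 and 990 CPM in members against 227, 252 and 249 CPM in other cells (log2 1.96 ± 0.09, adjusted p = 1.39e-50). The lowest member pool was above the highest pool of other cells for both genes. The T-box factors moved alike, with Eomes higher by 2.09 ± 0.16 and Tbx21, which encodes T-bet, by 1.98 ± 0.34. Xcl1, Il18rap, Ly6c2, Nkg7, Cxcr3 and Hopx were also higher, by 2.19, 1.94, 1.43, 1.37, 1.01 and 0.80 on the log2 scale. Ly6c2 is a near-identical copy of Ly6c1, which moved the other way (below), so the split between these 2 genes is uncertain. The perforin gene Prf1 differed by -0.17 ± 0.36 (adjusted p = 0.865), and Ifng, the interferon-γ gene, had 9 molecules in all members and was not tested.

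The calls for the granzymes Gzma and Gzmb rested on 1 cell and are set apart. A single saline member with 8205 molecules, the deepest of all members, held all 199 Gzma molecules of the class and 108 of its 113 Gzmb molecules. This cell also held 45 of 87 Lgals1, 36 of 72 S100a6, 10 of 17 Lgals3 and 45 of 82 Hmgb2 molecules of the saline members. It had 15 Trdc, 10 Tcrg-C1 and 79 Ccl5 molecules, with 6 of Trac and 3 of the proliferation gene Mki67. Without these 2 granzymes, 10 type 1 genes were called higher. Among all 358 genes called higher in members, 8 had over 25% of their member molecules in 1 cell.

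Of receptors shared with NK cells, Cd7, Cd160 and Klrd1 were the 3 list genes at or above 25 CPM in other CD3+ cells, and all 3 were higher in members. Another 7 of the list of 20 (Klrk1, Klrc1, Klrc2, Klrb1c, Klre1, Klra7 and Fcer1g) were under 25 CPM in other CD3+ cells. They were tested only because members were higher, so their fold changes are descriptive. Their calls and the median of the 10 tested (2.91) are no measure of the list. Cd7, a surface protein of T and NK cells, had 1125, 1171 and 1333 CPM in members of the saline, 4 h and 8 h pools against 144, 169 and 139 CPM in other CD3+ cells (log2 2.91 ± 0.09, adjusted p = 7.34e-76). Klrc1, the inhibitory partner of CD94, had 147, 223 and 152 CPM in members against 6.4, 8.9 and 6.8 CPM in other cells (log2 4.46 ± 0.30, adjusted p = 4.04e-32). Cd160 had 298, 275 and 276 CPM in members against 24.3, 31.7 and 27.5 CPM in other cells (log2 3.25 ± 0.18). For Cd7 and Cd160 the classes did not overlap in any pool. The CD94 gene Klrd1 was higher by 1.17 ± 0.12, the NKG2D gene Klrk1 by 2.70 ± 0.32, Klrb1c, which encodes NK1.1, by 2.92 ± 0.34, Klre1 by 3.82 ± 0.29, and the signalling adaptor Fcer1g by 2.25 ± 0.35. Klrc1 was in 23.4% of members and 1.13% of other cells, or 14.1% and 0.515% after thinning to 1000 molecules, and in 0 of 392 B cells. Klrc1 and Klrc2, and the Klra genes, are close copies, so values of single genes in these families are uncertain. NK cell marker genes moved with this group, as given above.

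Several leading genes were on none of the effector lists. Prdm16, a zinc finger transcription factor, had 157, 81.8 and 169 CPM in members of the saline, 4 h and 8 h pools against 4.9, 3.8 and 4.2 CPM in other CD3+ cells (log2 4.83 ± 0.33, adjusted p = 3.66e-31, edgeR). Prdm16 was under the filter of 25 CPM in other CD3+ cells. It was tested only because members were higher, so its fold change is descriptive. Ikzf2, which encodes Helios, had 487, 457 and 534 CPM in members against 111, 121 and 122 CPM in other cells (log2 1.96 ± 0.12). Sox4, a transcription factor of early lymphocytes, was higher by 2.61 ± 0.19, the SLAM family receptor Slamf7 by 2.87 ± 0.17, and the integrin α4 gene Itga4 by 1.23 ± 0.08. Ikzf2 also marks regulatory T cells, yet Foxp3, their defining factor, had 0 molecules in members and 61.0 CPM in other CD3+ cells. That is at least 13.0-fold lower in members against a floor of 3 molecules over all members. The rule removes cells with Cd4. CD3+ cells without Cd4, Cd8b1, Cd79a and Trdc held Foxp3 at 133, 143 and 113 CPM in the saline, 4 h and 8 h pools. The part of the rule in the members' Foxp3 count was not tested.

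Genes of naive T cells were lower in members, but not all of them. Of 16 genes on the naive and homing list, 9 were lower and 1 was higher, with a median log2 difference of -0.58. Igfbp4, a binding protein for insulin-like growth factors that marks naive T cells, had 52.3, 40.9 and 61.9 CPM in members of the saline, 4 h and 8 h pools, against 516, 551 and 533 CPM in other CD3+ cells (log2 -3.50 ± 0.18, adjusted p = 5.36e-46). The lymph node homing receptor Ccr7 had 78.5, 66.9 and 50.6 CPM in members, against 269, 255 and 267 CPM in other cells (log2 -2.09 ± 0.19). Neither gene overlapped between the classes. Satb1, Lef1, Actn1, Bach2, Dapl1, Ly6c1 and the egress receptor S1pr1 were lower as well. Among genes of this list that did not pass, the transcription factor genes Tcf7 and Klf2 differed by -0.17 ± 0.08 (adjusted p = 0.169) and -0.12 ± 0.10 (adjusted p = 0.565). Ccr9, the receptor for the thymus and gut chemokine CCL25, was the exception, at 256, 234 and 315 CPM in members and 120 CPM in other CD3+ cells over all pools (log2 1.04 ± 0.15, adjusted p = 1.98e-09). Outside the list, the IL-6 receptor gene Il6ra was lower by a log2 change of -3.39 ± 0.21, Slfn1 by -2.51 ± 0.16, Inpp4b by -2.31 ± 0.16 and Als2cl by -4.59 ± 0.33.

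The list of memory and tissue genes had 9 of 16 tested genes higher and 2 lower, with a median of 0.66. Of the 15 at or above the filter in other CD3+ cells, 8 were higher. Anxa2 was higher by 1.87 ± 0.21, Ahnak by 1.31 ± 0.13 and Cd48 by 0.90 ± 0.13, while Vim and Ly6a were lower. S100a6 and Lgals1 were also called higher, with 26.9% and 26.5% of their member molecules in the granzyme-bearing cell. Of receptor signalling genes, 1 of 14 tested was higher and 4 were lower. Ptprc, which encodes CD45, was higher by 0.31 ± 0.07. Cd5, an inhibitor of receptor signals, had 136, 78.0 and 78.7 CPM in members of the saline, 4 h and 8 h pools against 198, 199 and 213 CPM in other CD3+ cells (log2 -1.17 ± 0.18, adjusted p = 2.81e-08). Its partner family member Cd6, the adaptor Lat and the adhesion receptor Cd2 were lower by log2 changes of -1.14, -0.50 and -0.37. CD5 protein is named in the sort that the labels give, and the part of that gate in the members' number was not tested. The kinase genes Lck, Zap70 and Fyn did not pass, with log2 differences of 0.08, 0.40 and 0.22. Among innate-like genes, 4 of 8 tested were higher and 0 lower. These were Id2 and Id3, which encode inhibitors of E proteins, the chemokine receptor gene Cxcr6 and Tox. Early activation genes had 3 of 16 called higher, Egr1, Nr4a1 and Nr4a3, and 1 lower, Jund. The Egr1 call (log2 0.62 ± 0.18) rested on few cells. Egr1 was in 7.26% of members and 10.4% of other CD3+ cells, 1 cell held 34.5% of its member molecules, and in the 8 h pool it was at 5.62 CPM in members against 138 CPM in other cells. With its highest member cell left out the difference was 0.14 (adjusted p = 0.764, edgeR), and the call was also lost without the saline pool (0.39) and without the 4 h pool (0.03). Nr4a3 was under the filter of 25 CPM in other CD3+ cells and was tested only because members were higher. Its call was lost without the 8 h pool. Glucocorticoid-response genes had 2 of 12 higher, Fkbp5 and Cxcr4, and 3 lower. Interferon genes had 2 of 25 in each direction, and proliferation genes had 0 of 9 higher and 2 lower, Mki67 and Top2a, most of whose few member molecules were in 1 cell (76.9% and 72.2%).

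Type 17 transcripts were sparse. Il23r, a receptor chain for IL-23, had 5 molecules in all 248 members, Il17f had 1 and Il17re 0, and Il17a was not analysed here. At least 2 of 15 type 17 genes were found in 9 members (3.63%; 1.67 to 6.78%) and in 0.539% of other CD3+ cells. Of 7 tested genes of the list, 3 were called higher and 0 lower, and list genes low in both classes were not tested. These were Rora by 1.29 ± 0.26, the IL-18 receptor gene Il18r1 by 0.83 ± 0.21, and 5830411N06Rik, a scavenger receptor family gene, which had 41.9, 48.3 and 61.9 CPM in members of the saline, 4 h and 8 h pools against 2.31, 3.01 and 3.73 CPM in other CD3+ cells and so was tested only because members were higher. The first 2 are also expressed by type 1 cells, and 31.2% of the member molecules of 5830411N06Rik were in 1 cell. It was in 13 members (5.24%) and in 4.87% of Ccl5+ Cd8b1+ cells, at 50.2 and 23.0 CPM over all pools. Cd163l1, also of the list, was in 3.23% of members and 6.05% of Ccl5+ Cd8b1+ cells.

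**Figure D2:**
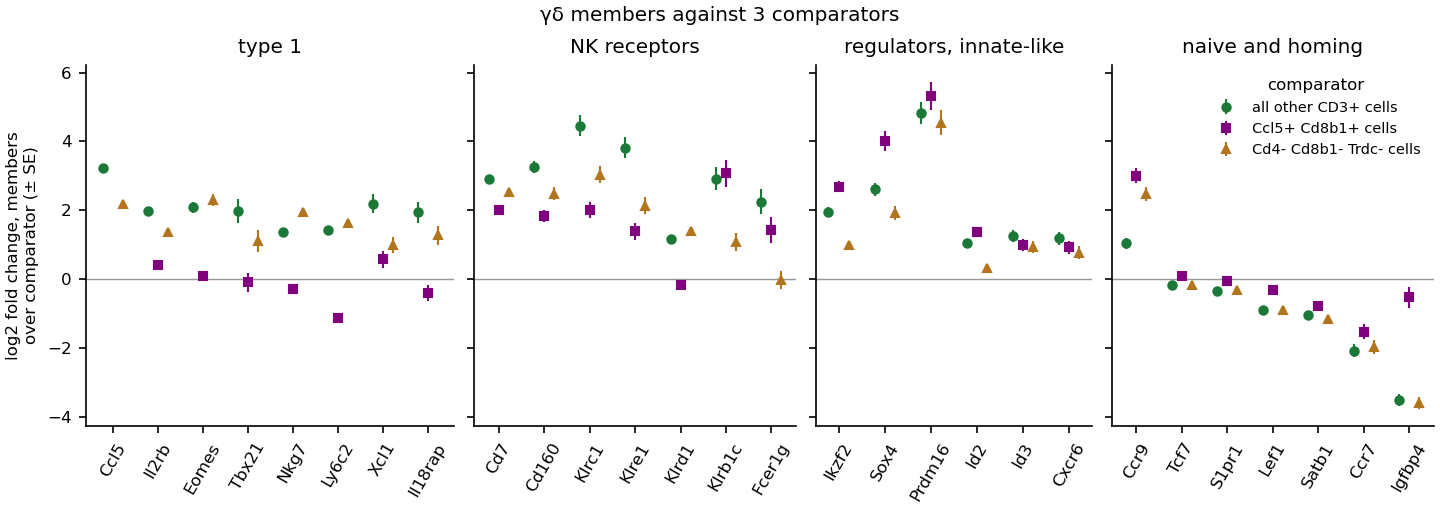
Log2 fold change (± SE from edgeR, 3 pools) of γδ members over 3 comparator classes, by gene group. Type 1 genes stood above 0 against other CD3+ cells. Against Ccl5+ Cd8b1+ cells Il2rb was above 0, Ly6c2 was below 0, and Eomes, Tbx21 and Nkg7 did not pass. Cd7, Cd160 and Klrc1 were above 0 and Ccr7 below 0 against all 3. Several genes, Klrc1 among them, were under the filter of 25 CPM in a comparator and were tested there only because members were higher. Ccl5 gated the Cd8b1+ class, but not the members, and has no point there.

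Members were also set beside the CD8 lineage cells of the same spleens that express Ccl5. This class, chosen by Cd8b1 and Ccl5, had 678 cells with a median of 3569 molecules. Ccl5 was not required of members, and 141 of 248 held it, so the classes differ in this gate. Of 5765 genes, 205 were higher in members (3.56%) and 293 lower (5.08%), and with the 8 h pool left out the total fell to 274. Of type 1 genes, 2 of 14 were higher and 5 lower, with a median of -0.29. Eomes, Tbx21 and Nkg7 differed by 0.10 ± 0.14, -0.10 ± 0.28 and -0.28 ± 0.10 and did not pass. Il2rb was still higher, by 0.39 ± 0.09 (adjusted p = 0.00246), and the other gene called higher was Gzmb, from the single cell above, whose log2 difference was 1.94 ± 0.50 with all pools and turned to -1.83 without the saline pool. Ly6c2, Hopx, Cxcr3, Gzmm and Prf1 were lower. Among Ccl5+ members of all pools, Il2rb, Eomes and Nkg7 were at 1366, 371 and 863 CPM, against 681, 266 and 724 CPM in this class. Tbx21 and Xcl1 were at 97.9 and 167 CPM against 58.9 and 72.5 CPM. The other way, Ly6c2 and Cxcr3 were at 1734 and 131 CPM against 2117 and 147 CPM. These levels were not tested. Of NK receptor genes, 8 of 11 tested were higher, and 6 of the 9 at or above the filter in Ccl5+ Cd8b1+ cells were higher, among them Cd7 at 2.0 ± 0.10, Cd160 at 1.83 ± 0.17 and Klrc1 at 1.99 ± 0.24. Klrd1 differed by -0.17 ± 0.12 (adjusted p = 0.484). Ikzf2 had 487, 457 and 534 CPM in members of the saline, 4 h and 8 h pools, against 51.5, 74.2 and 75.6 CPM in Ccl5+ Cd8b1+ cells (log2 2.68 ± 0.16, adjusted p = 3.54e-17). Ccr9 had 256, 234 and 315 CPM in members, against 24.5, 34.3 and 28.5 CPM in Ccl5+ Cd8b1+ cells (log2 3.0 ± 0.22), and neither gene overlapped. Sox4, Prdm16, Id2 and Nr4a1 were higher too, by 4.02, 5.33, 1.38 and 4.04. Of these, Sox4, Prdm16 and Nr4a1 were under the filter of 25 CPM in Ccl5+ Cd8b1+ cells. They were tested only because members were higher, so their fold changes are descriptive. For Nr4a1, 1 cell held 21.7% of the member molecules. Among the 12 named genes that were lower were the ribosomal protein genes Rps12, at -1.13 ± 0.07, and Rplp0, at -1.18 ± 0.07. Ribosomal protein genes have many processed copies in the genome, which makes single values uncertain. Nucleophosmin, encoded by Npm1, was lower by a log2 change of -1.08 ± 0.08. The Cd8b1+ cells had the higher median depth, and with every cell thinned to 1000 molecules 271 genes were called, against 498 with all molecules. Of 78 named genes tested in thinned cells, 54 stayed on the same side of the threshold, 24 no longer passed and 0 changed sign.

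The third comparator was the 2567 CD3+ cells without Cd4, Cd8b1, Cd79a and Trdc, the cells most like members by the rule. Of 5900 genes, 300 were higher in members (5.08%) and 299 lower (5.07%), and with the saline pool left out the total fell to 368. This class held Foxp3 at 133, 143 and 113 CPM in the saline, 4 h and 8 h pools, so it includes cells of the Cd4 lineage in which Cd4 was not detected. Called higher were 13 of 14 type 1 genes, 8 of 12 NK receptor genes and 12 of 17 memory and tissue genes, and 10 of 16 naive and homing genes were lower. Of the genes at or above the filter in these cells, 10 of 10 type 1, 6 of 10 NK receptor and 10 of 15 memory and tissue genes were higher. Nkg7 had 780, 598 and 658 CPM in members of the saline, 4 h and 8 h pools, against 122, 195 and 184 CPM in these cells (log2 1.94 ± 0.12, adjusted p = 4.89e-58). Eomes had 298, 331 and 321 CPM in members, against 73.7, 49.9 and 62.6 CPM (log2 2.30 ± 0.17). Both genes were higher in members of every pool. Itgae, the integrin αE gene, was called here at 2.19 ± 0.40 and differed by 0.45 ± 0.27 (adjusted p = 0.357, edgeR) against all other CD3+ cells. Itgae was under the filter of 25 CPM in the third class and was tested here only because members were higher. Zbtb7b, the factor of the CD4 lineage also known as ThPOK, and Izumo1r, a marker of regulatory cells, were lower by log2 changes of -2.54 ± 0.29 and -2.23 ± 0.24. Early activation genes had 1 of 17 higher, Nr4a1, and 3 lower, Junb, Jund and Zfp36.

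Members were not uniform, and Ccl5 divided them. It was present in 141 members (39, 66 and 36 in the saline, 4 h and 8 h pools) and in 0.765% of B cells. The 141 cells with Ccl5 had a median of 2592 molecules and the 107 without it a median of 2193, so shares of cells differ partly by depth and levels are given in CPM. No test was made, since the division was chosen from these cells. Ly6c2 had 1852, 1849 and 1377 CPM in Ccl5+ members of the saline, 4 h and 8 h pools, against 250, 121 and 121 CPM in members without Ccl5. Klrd1 had 635, 708 and 673 CPM against 39.4, 87.8 and 133 CPM, and Il2rb had 1261, 1383 and 1461 CPM against 592, 395 and 448 CPM. These genes were higher in Ccl5+ members of every pool. Ccr9 ran the other way, at 78.2, 101 and 52.5 CPM in Ccl5+ members and 526, 494 and 617 CPM in members without Ccl5. 5830411N06Rik was at 2.58 CPM over all Ccl5+ members and 124 CPM in members without Ccl5. Sox4 was at 157 CPM in Ccl5+ members and 340 CPM in members without Ccl5, and Id3 at 129 and 312 CPM. Other genes differed less between the 2 sets. Itga4 had 1295, 1192 and 1209 CPM in Ccl5+ members of the saline, 4 h and 8 h pools, against 1065, 1119 and 1053 CPM in members without Ccl5. Ikzf2 had 504, 410 and 420 CPM in Ccl5+ members, against 460, 549 and 665 CPM in members without Ccl5. Over all pools Cd160 was 309 CPM in Ccl5+ members and 240 CPM in members without Ccl5, and Tcrg-V1 was 322 and 380 CPM. Itga4 and Cd160 were higher and Tcrg-V1 lower in Ccl5+ members of every pool, and Ikzf2 had no one direction.

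**Figure D3:**
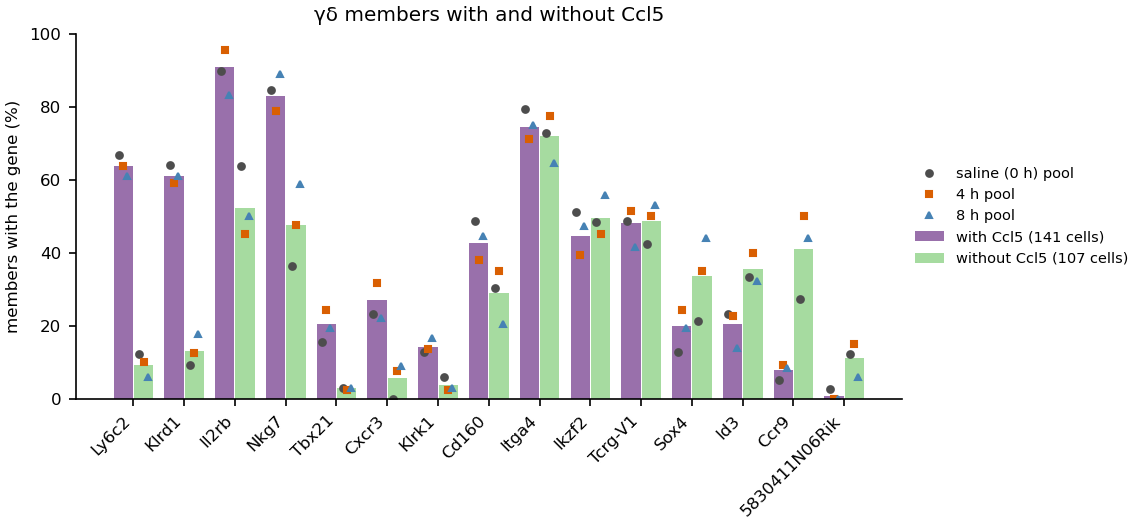
Share of γδ members with at least 1 molecule of each gene, in members with Ccl5 (left bar) and without Ccl5 (right bar), with points for the 3 pools. Ly6c2 and Klrd1 were mostly in members with Ccl5, Ccr9 and 5830411N06Rik mostly in members without it, and Itga4, Ikzf2 and Tcrg-V1 were in both.

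Members were also divided by receptor segment. Members with Tcrg-V1 (120) against those without (128) had 0 genes higher (0%) and 4 lower (0.106%) of 3786 tested with edgeR, with 246 at an unadjusted p under 0.05. DESeq2 called 0, with 27 at an unadjusted p under 0.05. The genes were Gzma, Gzmb, S100a6 and Ly6c2, and the first 3 draw on the granzyme-bearing cell, which lacked Tcrg-V1. S100a6 was also lower in Tcrg-V1+ members of the 8 h pool, which did not hold that cell, at 60.3 against 337 CPM. At 4 h it was at 87.3 against 98.8 CPM. Ly6c2 had 1183, 887 and 374 CPM in Tcrg-V1+ members of the saline, 4 h and 8 h pools, against 1241, 1657 and 1160 CPM in members without Tcrg-V1 (log2 -0.82 ± 0.18, adjusted p = 0.0393). Its saline values were close, and the count of called genes was 0 without the 4 h pool and 49 without the saline pool. The 13 members with Tcrg-C4 as their only γ constant gene, 1 of them in the saline pool, had 0 genes higher (0%) and 0 lower (0%) of 3602 against the 53 members with Tcrg-C1 or Tcrg-C2 only. edgeR gave 141 genes at an unadjusted p under 0.05, and DESeq2 called 0, with 9 at that level. On simulated counts of this comparison edgeR recovered 0% of genes changed 2-fold or 4-fold, so changes of those sizes would not have been called, and without the saline pool 2 genes were called. For Tcrg-V1 it recovered 40% of genes raised 2-fold and 28% of genes lowered to 0.5 of their level.

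The share of members differed between pools in 1 direction at 4 h and little at 8 h. Members were 1.44% of CD3+ cells in the saline pool (95% exact Clopper-Pearson interval 1.13 to 1.81%), 2.07% in the 4 h pool (1.69 to 2.49%) and 1.36% in the 8 h pool (1.06 to 1.72%). The ratio of the 4 h share to the saline share was 1.44 (1.06 to 1.97), and that of the 8 h share to the saline share was 0.95 (0.674 to 1.34). Each treatment had 1 pool, so there is no test and the intervals cover counting error only, leaving out the spread between mice. When γ constant molecules were not required the 4 h ratio was 1.27 (0.966 to 1.67), and after thinning it was 1.28 (0.916 to 1.79), both intervals including 1. The makeup of members was compared in the same way. Ccl5 was in 54.2, 62.3 and 51.4% of members in the saline, 4 h and 8 h pools, Tcrg-V1 in 45.8, 50.9 and 47.1%, and Tcrg-C4 in 81.9, 78.3 and 75.7%, with overlapping intervals for each.

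**Figure D4:**
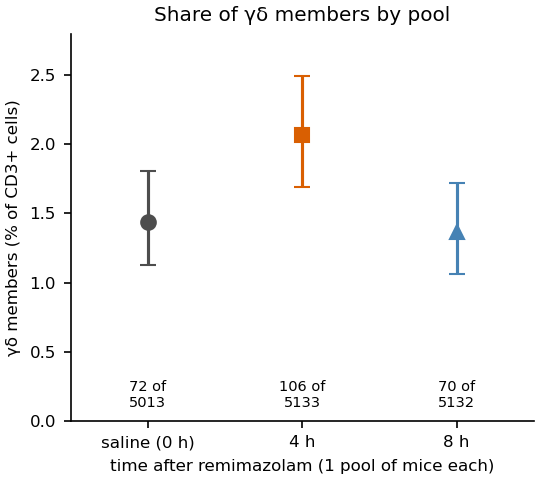
γδ members as a percentage of CD3+ cells in each pool, with exact 95% intervals for counting error and the number of cells. The 4 h pool stood at 2.07%, against 1.44% for saline and 1.36% at 8 h.

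Within members, levels after remimazolam were compared as ratios of CPM to the saline pool, with intervals for counting error and no test. The intervals take each molecule as independent, so they leave out the spread between cells and between mice. The 4 h and 8 h ratios share the saline pool. At 4 h, 568 of 4301 genes with at least 20 molecules were 1.5-fold or more higher (13.2%) and 511 were that much lower (11.9%). At 8 h, 446 of 3627 genes were higher (12.3%) and 447 lower (12.3%). Among list genes at 4 h, 3 of 8 innate-like genes were 1.5-fold or more higher and 0 lower (median log2 ratio 0.33, interval -0.09 to 0.68). For interferon genes 1 of 21 was higher and 4 lower (median -0.26, interval -0.49 to 0.01). Both intervals included 0. For memory and tissue genes 1 of 16 was higher and 4 lower at 4 h, and 1 of 16 higher and 5 lower at 8 h, and the single saline cell above held many of the saline molecules of 3 of them (Lgals1, S100a6 and Lgals3). The medians over all genes were 0.00 at both times.

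The genes whose intervals lay farthest from 1, with no single cell above 25% of a pool's molecules, are the named ones. Over all 4301 genes at 4 h, 139 intervals lay above 1 and 171 below 1. Of 3627 at 8 h, 115 lay above 1 and 127 below 1. The named genes are the extremes of these ratios. Txk, a Tec family kinase of T cell receptor signalling, had 253 CPM in the 4 h members and 242 CPM in the 8 h members, against 105 CPM in saline members. Its ratios were 2.41 (1.45 to 4.2) at 4 h and 2.31 (1.33 to 4.15) at 8 h, against 1.01 and 1.00 in other CD3+ cells. Nfkbia, the NF-κB inhibitor, had 334 CPM in 4 h members and 287 CPM in 8 h members, against 157 CPM in saline members, with ratios of 2.13 (1.40 to 3.34) and 1.83 (1.14 to 2.97) against 1.09 and 1.02 in other CD3+ cells. Both genes stood above saline at both times in members and between 1.00 and 1.09 times it in other T cells. Both times are set against the same saline counts, 20 Txk and 30 Nfkbia molecules, so they are not separate results. Others that were higher at 4 h included Nlrc5, a regulator of MHC class I genes, at 2.24 (1.32 to 3.98), Ndfip2 at 4.12 (1.58 to 13.6) on 29 against 5 molecules, and Psen2 at 3.11 (1.42 to 7.75). At 8 h the list held the cytokine gene Clcf1 at 3.76 (1.47 to 11.4), Tox at 2.44 (1.29 to 4.81), Ift80 at 1.89 (1.32 to 2.73) and Xist at 1.78 (1.37 to 2.33). The remaining named genes that were higher were Ilkap, Ap1g1, Dhx40, Mllt3 and Sh3bp5 at 4 h and Psen2, Washc3, Casc3, Med1 and Ttf1 at 8 h.

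Among lower genes, Tap1, a peptide transporter of MHC class I loading, had 85.5 CPM in 4 h members and 84.4 CPM in 8 h members, against 215 CPM in saline members. Its ratios were 0.398 (0.228 to 0.680) at 4 h and 0.393 (0.202 to 0.726) at 8 h, against 0.982 and 0.996 in other CD3+ cells. Dusp2, a phosphatase of MAP kinases, had 259 CPM in 8 h members against 523 CPM in saline members, a ratio of 0.494 (0.341 to 0.708), and 0.845 (0.642 to 1.11) at 4 h. In other CD3+ cells its 8 h ratio was 0.896 (0.859 to 0.933). Runx3, a transcription factor of cytotoxic lineages, had a ratio of 0.511 (0.340 to 0.757) at 8 h, against 0.968 in other CD3+ cells. Tapbpl, which also edits MHC class I peptides, was at 0.376 (0.189 to 0.706) at 8 h. At 4 h, low ratios included Manf at 0.355 (0.182 to 0.666), Tnpo3 at 0.300 (0.134 to 0.629) and Parp9 at 0.367 (0.183 to 0.708). The other named genes that were lower were Bbx, Mapre2, Ccng1, Ppp6c, Snd1 and Glg1 at 4 h and Cnot2, Arih1, Clcn4, Irak1, Mon2 and Npm3 at 8 h. Early activation genes were 1.5-fold or more lower in 7 of 14 cases and higher in 3 at 8 h, against 12.3% of all genes each way. Their median log2 ratio was -0.51, with an interval of -1.02 to 0.52 that included 0. Egr1 had 1 molecule at 8 h against 60 in saline members, but 10 saline cells held all 60 and 1 of them held 23.

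Genes that set members apart from other T cells were followed across pools. Il2rb had a ratio of 1.05 (0.874 to 1.27) at 4 h, and its 8 h ratio was 0.996 (0.806 to 1.23). For Cd7 the ratios were 1.04 (0.872 to 1.24) and 1.18 (0.981 to 1.43), so all intervals of both genes included 1. For Ccl5 the 4 h ratio was 0.995 (0.892 to 1.11) in members and 1.24 in other CD3+ cells. Its 8 h ratio was 0.823 (0.725 to 0.934) in members and 1.27 in other CD3+ cells. Ly6c2 was at 1.04 (0.878 to 1.24) and 0.653 (0.526 to 0.809), against 1.07 and 1.02. Its molecules came from 30, 46 and 24 members of the saline, 4 h and 8 h pools, a spread that the intervals do not cover. Klrk1 was at 2.94 (1.26 to 7.96) at 4 h on 29 against 7 molecules, and at 8 h 1 cell held 47.8% of its molecules. The share of members with Klrk1 was 9.72, 9.43 and 10.0% in the saline, 4 h and 8 h pools. In other CD3+ cells it had 9.71, 14.2 and 14.0 CPM. Among genes of the naive and homing list, Lef1 was at 1.41 (1.03 to 1.94) at 4 h and 1.49 (1.06 to 2.10) at 8 h. S1pr1 was at 0.710 (0.534 to 0.945) at 4 h, against 0.981 in other CD3+ cells.

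Genes that differed between pools over all T cells were followed in members. Tsc22d3, a glucocorticoid-induced gene, had 22 molecules in 4 h members and 17 in 8 h members against 14 in saline members, with ratios of 1.12 (0.546 to 2.36) and 1.31 (0.605 to 2.86), against 0.675 and 0.734 in other CD3+ cells. Zfp36l2, an RNA-binding protein gene, was at 1.00 (0.821 to 1.22) and 0.851 (0.675 to 1.07), against 0.802 and 0.783. Ddit4 was at 0.692 (0.434 to 1.10) and 0.537 (0.298 to 0.941), against 0.724 and 0.680. In members the 8 h interval of Ddit4 stayed below 1, and those of Tsc22d3 and Zfp36l2 included 1 at both times. Cxcr4 was at 1.19 (0.711 to 2.04) and 0.731 (0.370 to 1.41), against 0.756 and 0.690, and the fatty acid oxidation gene Cpt1a was at 1.09 (0.567 to 2.13) and 1.14 (0.553 to 2.35), against 1.47 and 1.16. Bcl3 had 16 molecules in 4 h members against 4 in saline members, a ratio of 2.84 (0.916 to 11.7), against 1.69 in other CD3+ cells, and fell under the molecule minimum at 8 h. Whether members and other CD3+ cells differ in these ratios was not tested, since 1 pool stands for each treatment.

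**Figure D5:**
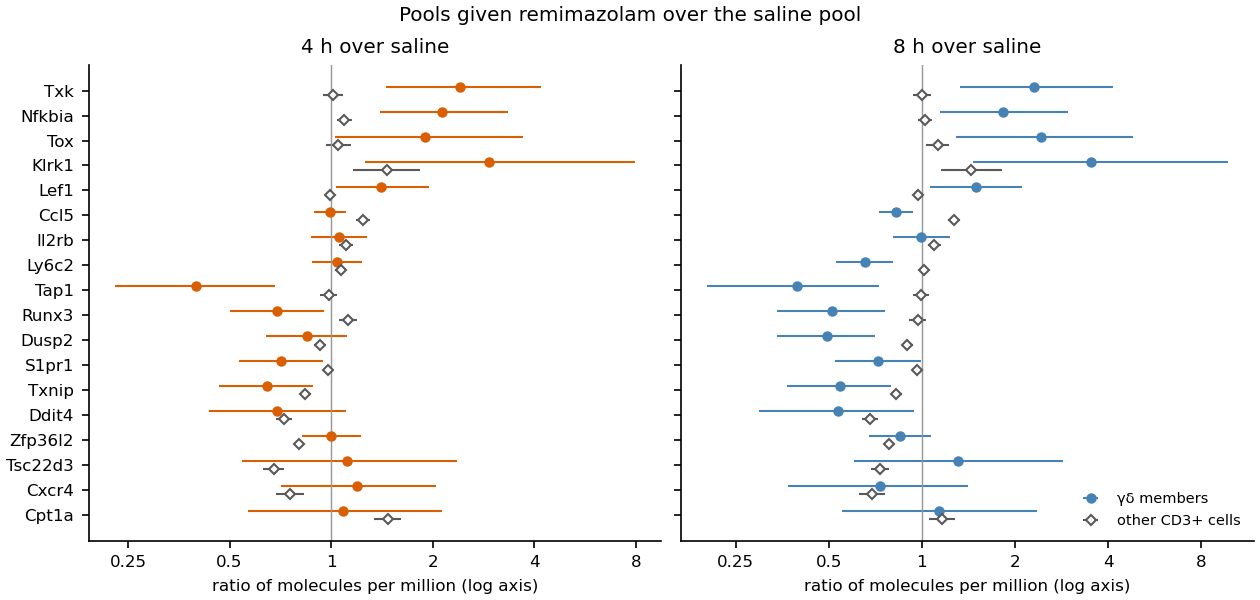
Ratio of CPM (log axis) in the pools given remimazolam over the saline pool, 4 h on the left and 8 h on the right, in γδ members (filled) and other CD3+ cells (open), with 95% intervals for counting error. Txk and Nfkbia lay above 1 and Tap1 below 1 in members at both times, while other CD3+ cells lay near 1 for these genes. Both times share the saline pool, and these genes were named for their ratios in members.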

How the data were processed

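Molecule counts per cell and gene were deposited as a table of whole numbers, corrected for recursive substitution errors and made with the BD Rhapsody pipeline (version 1.9.1), on GRCm38 with GENCODE M19, per the file headers. Tags were matched to treatments by the deposited description. Kept cells had 1 tag, at least 200 genes and under 25% mitochondrial molecules (16123 of 17299), and multiplets were left out. The members and gene lists were chosen with earlier results of these data known. Counts were summed per pool and class and tested with edgeR 4.0.16 (R 4.3.3; TMM, quasi-likelihood, pool as block, mean CPM of at least 25, or 50 within members, adjusted p threshold 0.05). The 3 pools carry different treatments, so p-values and SE rest on the spread between pools left after the pool term. edgeR shares this spread over genes, so very small p-values do not measure a single gene's own spread between 3 pools. Gzma, with all its member molecules in 1 cell, still had an adjusted p of 1.91e-45 (edgeR) against the third class. Genes of the rule stayed in the fit and out of the counts. Named genes were the 12 of lowest p each way with an absolute log2 change of at least 1 and 1 sign in all pools, plus list genes. For treatments they were the 10 each way whose interval lay farthest from 1. Treatment ratios have exact conditional binomial intervals (95%). A gene low in a comparator could pass the filter through members alone. The fit was tested on simulated data: for members against other CD3+ cells, with 5869 genes, it recovered 80% of genes raised 2-fold and 72% of genes lowered to 0.5 of their level; the values were 68% and 48% against Ccl5+ Cd8b1+ cells, with 5775 genes, and 80% and 62% for the third class, with 5908 genes. DESeq2 1.42.0, other scalings, filters, member rules, thinning and leaving out each pool were alternatives. Other scripts used Python 3.11.15. PCR-corrected molecules are counted, and intervals cover counting error only.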

Additional observations from a re-analysis of the deposited data

Results flagged for a closer look

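Cells with more than 1 sample tag (multiplets) entered no comparison. Among CD3+ multiplets, 11 of 1045 passed the member rule, which is 1.05% (95% exact Clopper-Pearson interval 0.527 to 1.88%). They are a signal in cells that the comparisons do not use, above the 3 cells that a count of 0 allows, and the share in single-tag CD3+ cells was 1.36 to 2.07%.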

How the results depend on the processing

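The number of genes called moved with the tool, depth and pools used. DESeq2 called 405 genes against 678 for members and other CD3+ cells, 193 against 498 for Ccl5+ Cd8b1+ cells and 259 against 599 for the Cd4- Cd8b1- Trdc- class, and after thinning to 1000 molecules per cell the counts were 418, 271 and 361. Leaving out 1 pool gave 485 to 554, 274 to 481 and 368 to 434. For Tcrg-V1 the 4 calls became 0 with DESeq2, 9 without the filter, 2 with at least 2 Trdc molecules, 7 after thinning, 7 with each gene's highest cell left out, and 0 to 49 with 1 pool left out (49 without the saline pool), and for Tcrg-C4 0 to 2. No sign turned among the named genes of the 3 class comparisons except in genes held by few cells: against other CD3+ cells DESeq2 gave Egr1 -0.19 and Gzma -2.73; against Ccl5+ Cd8b1+ cells Gzmb was -0.12 with DESeq2 and ranged over -1.83 to 3.71 with 1 pool left out, lowest without the saline pool; and against the Cd4- Cd8b1- Trdc- class Gzma was -1.68 with DESeq2. Genes 1.5-fold higher and lower than saline numbered 96 and 97 at 4 h and 60 and 83 at 8 h with a minimum of 50 molecules, and 2727 and 2427, and 2935 and 2651, with none. The cause of these changes was not tested. The ratios of member shares stayed within counting error in all alternatives run, as did the 140 and 135 alternatives for named treatment genes. The pools carry no replicate numbers, so no paired analysis was possible beyond the pool term, because each treatment has 1 pool; without that term the class counts were 702, 567 and 623. Restricting members to cells without Trac, and leaving out each gene's highest cell, were chosen after seeing the data and gave 491, 398 and 425, and 703, 575 and 610. Depth limits what members can show: 3 molecules in a pool are 11.1 to 16.9 CPM.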
